A study of Mus musculus with 4 samples.

Results

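Prostaglandin synthesis and sensing were examined in 3T3-L1 cells through 10 genes: the cyclooxygenases Ptgs1 and Ptgs2, the terminal synthases Ptges, Ptgis and Ptgds, and the receptors Ptgfr, Ptger1, Ptger2, Ptger3 and Ptger4. The genes were chosen by symbol, case ignored, from the platform's probe table, and all 10 were on the array, among 17734 named genes. They were read by 14 probes, 7 genes by a single probe each. 3T3-L1 is an established mouse preadipocyte line derived from embryonic fibroblasts. All 4 samples, cultured with 10% fetal bovine serum, received the adipogenic mixture of 0.5 mM isobutylmethylxanthine (IBMX), a phosphodiesterase inhibitor that raises cyclic AMP, 1 µM dexamethasone, a glucocorticoid, and 1 µg/ml insulin. The 2 control samples had the mixture alone for 48 hours. The 2 berberine samples had 13.47 µM berberine, a plant alkaloid, with it for the same 48 hours. The mixture was thus common to both groups, and no untreated preadipocytes or other times were analysed here. The labels do not say that the samples of a group came from separate cultures, and the spread behind every p-value is therefore that between these arrays and may be technical.

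Prostaglandins are local lipid signals made from arachidonic acid. Phospholipases release the fatty acid from membranes, a cyclooxygenase turns it into prostaglandin H2, and terminal synthases turn that into prostaglandin E2, D2, F2-alpha or prostacyclin, each of which acts on its own G protein-coupled receptors. Ptgs1 is generally held at a steady level, whereas Ptgs2 is an immediate-early gene that cytokines and cyclic AMP induce and glucocorticoids repress. In preadipocyte cultures, prostacyclin and derivatives of prostaglandin D2 are known as promoters of adipogenesis, and prostaglandin F2-alpha, acting through Ptgfr, as an inhibitor of it.

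The start regions of both cyclooxygenase genes are shown because these isoenzymes catalyse the same step and differ in regulation. Each runs from 250 bases before the annotated start to 25 bases from the start on, 5′ to 3′ on the gene's strand, from RefSeq (GRCm38.p6), and is on the plus strand. Capitals mark matches, on either strand, to the TATA box TATAAA, to CGTCA, the core of the cyclic AMP response element, to the E-box CACGTG, to the C/EBP motif TTNNGNAA or to the GC box GGGCGG.
Ptgs1, chr2:36230176-36230450: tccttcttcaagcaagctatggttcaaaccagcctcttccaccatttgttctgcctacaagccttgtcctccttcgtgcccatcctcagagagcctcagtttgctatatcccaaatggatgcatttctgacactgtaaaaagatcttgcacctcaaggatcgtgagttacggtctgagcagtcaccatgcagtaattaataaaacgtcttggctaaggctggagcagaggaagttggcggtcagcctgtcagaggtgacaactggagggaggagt
Ptgs2, chr1:150099781-150100055: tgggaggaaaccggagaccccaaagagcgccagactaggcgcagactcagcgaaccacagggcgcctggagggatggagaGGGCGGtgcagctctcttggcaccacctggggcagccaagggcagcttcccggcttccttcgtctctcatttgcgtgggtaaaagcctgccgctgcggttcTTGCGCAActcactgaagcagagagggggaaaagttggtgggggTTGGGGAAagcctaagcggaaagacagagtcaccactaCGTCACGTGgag

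In the Ptgs2 window, CGTCA lay at positions 14 to 18 and CACGTG at 17 to 22, counted from 1 at the annotated start, so that the 2 matches share positions 17 and 18. TTNNGNAA matched at TTGCGCAA, from -69 to -62, and at TTGGGGAA, from -25 to -18, and GGGCGG was found at -170 to -165. The Ptgs1 window held none of the 5 motifs. Of 32851 RefSeq windows of 275 bases, 19.7% held CGTCA, 6.68% the E-box, 38.9% the C/EBP motif, 34.4% the GC box and 13.0% the TATA box. Among the 8 member genes with a window, CGTCA and the E-box were found at Ptgs2 alone, the C/EBP motif at 5 genes and the GC box at 5. Where transcription starts in these cells was not analysed here, and the annotated start may differ from it. The CGTCA and E-box matches lay in the 25 bases from the annotated start on, a limit set after the sequences were seen. That Ptgs2 alone held them may therefore depend on this limit. A match is a string of letters and no evidence of a bound factor. G and C made up 61.1% of the Ptgs2 window and 48.7% of the Ptgs1 window, against a median of 52.4% over all windows.

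Berberine samples differed widely from controls, so the members are read against all probes. Log2 intensities correlated at 0.989 between the control arrays and 0.994 between the berberine arrays, against 0.912 to 0.914 across groups. Levels below are log2 intensities after quantile normalization, with SD over the 2 arrays of a group, and changes are berberine minus control from a limma fit over 26408 probes with Benjamini-Hochberg adjustment and a threshold of 0.05. By that rule 44.8% of all probes were called, 27.1% higher and 17.7% lower. The median change of all probes was 0.17 on the log2 scale, and -0.05 to 0.52 under other scalings of the arrays. The median deposited intensity was 350 to 423 on control arrays and 237 to 280 on berberine arrays. No detection call was analysed here, so values under the 25th percentile of the normalized data, 6.57 on the log2 scale, were treated as lying under a floor. Levels of different probes cannot be compared with each other on this array.

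Berberine samples had more signal for both cyclooxygenases, and much more for Ptgs2. Ptgs2 was 8.85-fold and Ptgs1 1.88-fold higher. Of the terminal synthases, Ptgds was lower and Ptges and Ptgis did not pass the test. Among the receptors, the Ptger1 probe was higher, the 3 Ptger4 probes moved in opposite directions, 1 of 2 Ptgfr probes was lower, and Ptger2 and Ptger3 did not pass. In all, 5 of the 14 probes were higher, 3 lower and 6 not called, where 27.1% of all probes were higher and 17.7% lower. All 14 were tested, and 12, from 9 genes, exceeded the floor in at least 1 group. After normalization the groups did not overlap at 12 of the 14 probes, and 74.8% of all probes had that pattern.

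**Figure D1:**
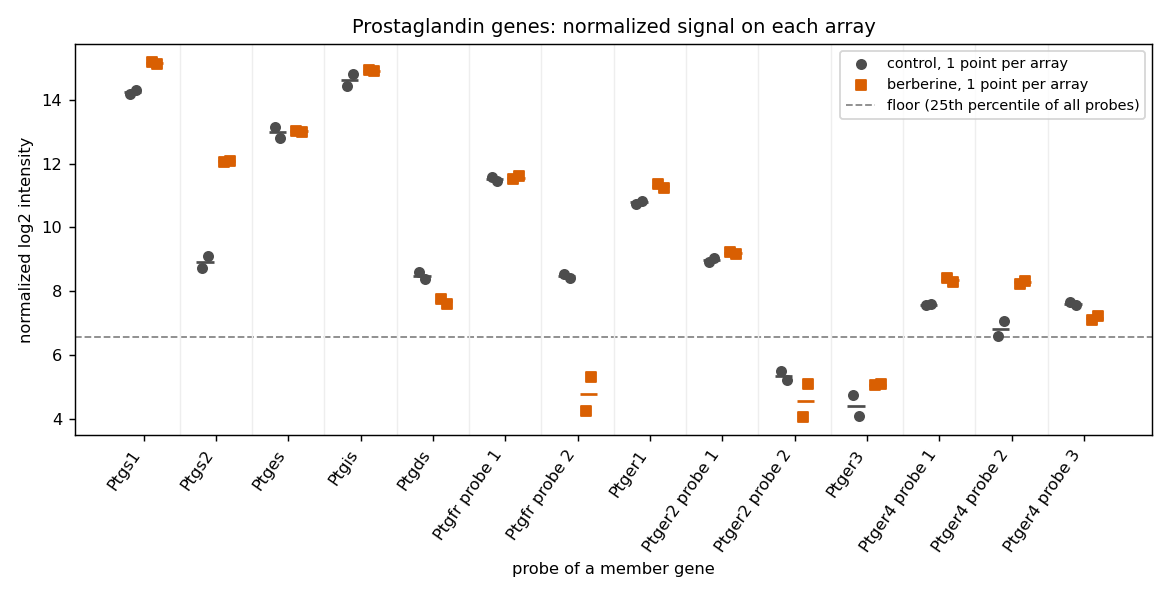
Normalized log2 intensity (vertical axis) of each of the 14 probes of the 10 genes (horizontal axis) on the 2 control arrays (grey circles) and the 2 berberine arrays (orange squares), with short bars at group means and a dashed line at the floor of 6.57. The Ptgs2 points of the berberine arrays stand near 12.07, above control points near 8.92, while Ptger3 and the second Ptger2 probe lie under the floor on every array.

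Ptgs2, the inducible cyclooxygenase, had deposited intensities of 588 and 614 in control and 3984 and 4460 with berberine. Both berberine arrays were far above both controls, and the lower berberine value was 6.49 times the higher control value before any scaling. After normalization Ptgs2 was at 8.92 ± 0.26 (SD, n = 2) in control and 12.07 ± 0.0093 (n = 2) with berberine, which is a log2 change of 3.15 (SE 0.17, limma adjusted p = 0.000306) or 8.85-fold, with a 95% interval of 6.55 to 12.0. Only 0.083% of all probes had a larger rise. Over the 11 alternatives the log2 change was 2.81 to 3.38, and the call held in 11 of them, with adjusted p up to 0.0182.

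Ptgs1, the constitutive cyclooxygenase, read 19765 and 16760 in control and 38863 and 39763 with berberine, again with no overlap. Its level was 14.25 ± 0.095 without and 15.16 ± 0.059 with berberine (n = 2 each). The log2 change was 0.91 (SE 0.13, adjusted p = 0.00489) or 1.88-fold, with an interval of 1.49 to 2.36. A larger rise was seen at 13.7% of all probes. The change was 1.11 to 1.68 under the other scalings. The call was lost without berberine replicate 1 (adjusted p = 0.067) and without berberine replicate 2 (0.056), although the change stayed at 0.87 and 0.95.

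The fitted rise of Ptgs2 exceeded that of Ptgs1, and their 95% intervals did not meet. Within each array the log2 ratio of Ptgs2 to Ptgs1 intensity does not depend on a common scaling factor, and only its shift between groups can be read, since the probes differ. The ratio was -5.07 and -4.77 on control arrays and -3.29 and -3.16 on berberine arrays, a shift of 1.70 with no overlap. The fitted changes after quantile normalization, 3.15 for Ptgs2 and 0.91 for Ptgs1, lay farther apart than this shift. For 2 arrays against 2 the smallest two-sided p of an exact permutation test is 0.33, so this shift could not pass such a test.

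Ptges, the microsomal prostaglandin E synthase often coupled to Ptgs2, did not follow it. It read 9970 and 6035 in control and 8383 and 8942 with berberine, so the controls lay on either side of both berberine values. The level was 12.98 ± 0.24 without and 13.02 ± 0.028 with berberine (n = 2 each), a change of 0.04 with a 95% interval of -0.38 to 0.45 (adjusted p = 0.868). Only when arrays were centred on their median was Ptges called higher (0.72, adjusted p = 0.038), where the median of all probes was 0.52.

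Ptgis, prostacyclin synthase, read 23174 and 23371 in control and 32362 and 34296 with berberine, higher in both berberine arrays before scaling. Its normalized level was 14.62 ± 0.26 and 14.92 ± 0.033 (n = 2 each), a change of 0.30 (interval -0.14 to 0.73) with adjusted p = 0.213, which did not pass. The call depended on the scaling, with changes of 1.08 after centring (adjusted p = 0.0073) and 0.82 on the 75th percentile (0.034), and on control replicate 2, without which the change was 0.48 (0.048).

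Ptgds, a prostaglandin D synthase of the lipocalin family, was the only 1 of the 3 terminal synthases among the members that was called lower. It read 538 and 368 in control and 166 and 184 with berberine, and both berberine values were below both controls. The level was 8.49 ± 0.17 without and 7.68 ± 0.099 with berberine (n = 2 each). The log2 change was -0.81 (SE 0.15, adjusted p = 0.0108), or 1.75-fold lower with an interval of 1.34 to 2.28. Without berberine replicate 1 or 2 the change was -0.88 and -0.74 and no longer passed (adjusted p = 0.079 and 0.098). Mature adipocyte markers fell in the same samples, as given below, and their part in this result was not tested.

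**Figure D2:**
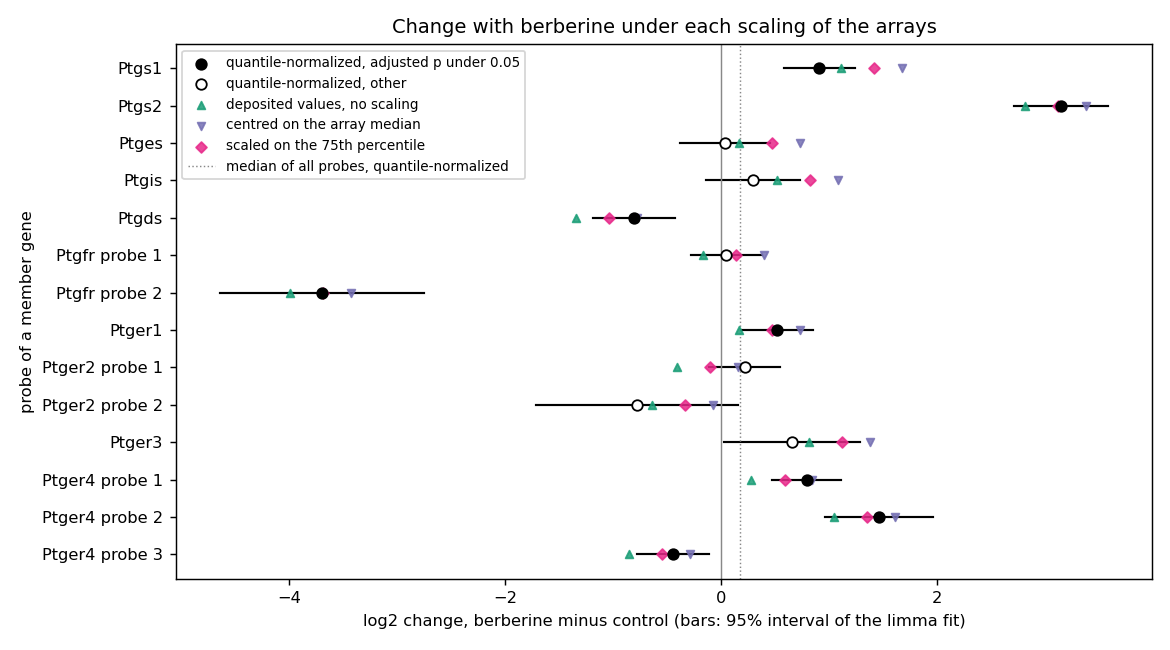
Log2 change with berberine (horizontal axis) for each probe of the 10 genes (vertical axis) after quantile normalization, with 95% intervals as bars and called probes filled, and under 3 other scalings (coloured marks). Ptgs2 lies between 2.81 and 3.38 under all 4 scalings shown, Ptgis moves from 0.30 to 1.08 and the first Ptger2 probe changes side of 0.

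Where a receptor gene had several probes, they showed little accord. Ptgfr, the receptor of prostaglandin F2-alpha, read 3768 and 2654 in control and 2565 and 3087 with berberine at its brighter probe. These values overlapped, and the normalized level was 11.52 ± 0.075 and 11.56 ± 0.068 (n = 2 each), a change of 0.05 (interval -0.28 to 0.37, adjusted p = 0.792). The dimmer Ptgfr probe read 509 and 378 in control and 14 and 54 with berberine. There the berberine signal lay under the floor, and the fall was at least 3.74-fold against it (fitted log2 change -3.70, SE 0.36, adjusted p = 0.00167). It held in all 11 alternatives, with log2 changes of -4.24 to -3.05 and adjusted p up to 0.0367. The probes of this gene thus disagreed, and which transcripts each one detects was not analysed here.

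Ptger1 to Ptger4 encode the receptors of prostaglandin E2, of which Ptger2 and Ptger4 couple to cyclic AMP production. The Ptger1 probe read 2259 and 1825 in control and 2252 and 2304 with berberine, which overlap before scaling. After normalization it was at 10.78 ± 0.076 and 11.30 ± 0.080 (n = 2 each), 1.43-fold higher (log2 change 0.51, SE 0.13, adjusted p = 0.0279). The call was lost when arrays were not scaled (change 0.17, adjusted p = 0.675), when scaled on the 75th percentile (0.47, adjusted p = 0.105) and without control replicate 1 (adjusted p = 0.066), berberine replicate 1 (0.174) or berberine replicate 2 (0.118).

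Ptger2 read 674 and 588 in control and 455 and 491 with berberine at its brighter probe, lower before scaling but not after quantile normalization. The normalized change was 0.22 (interval -0.11 to 0.54, adjusted p = 0.224). It was -0.41 in the deposited values, -0.11 on the 75th percentile and 0.15 after centring, with no call under any of 11 alternatives. The dimmer Ptger2 probe read 39 and 38 in control and 13 and 47 with berberine, under the floor in both groups. Ptger3, which couples to inhibition of adenylyl cyclase, was under the floor as well, with 19 and 20 in control and 25 and 47 with berberine. No fold is given for either, although Ptger3 was called higher after centring (adjusted p = 0.016), on the 75th percentile (0.041) and without control replicate 1 (0.017), and the dimmer Ptger2 probe lower without berberine replicate 2 (0.047).

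Ptger4 had 3 probes, all dim. The brightest on average read 239 and 208 in control and 261 and 280 with berberine, and was 1.73-fold higher after normalization (log2 change 0.79, SE 0.12, adjusted p = 0.00685). Another read 107 and 142 in control and 227 and 283 with berberine, 2.75-fold higher (log2 change 1.46, SE 0.19, adjusted p = 0.00412). The remaining probe read 258 and 200 in control and 109 and 145 with berberine, 1.36-fold lower (log2 change -0.45, SE 0.13, adjusted p = 0.0424). At each probe the groups did not overlap, yet the directions differed.

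None of the 3 Ptger4 calls held without berberine replicate 1 or 2. For the first 2 probes adjusted p was then 0.056 to 0.079, and for the lower one 0.222 and 0.141. That last call was also lost under all 3 other scalings (adjusted p 0.057 to 0.168) and without control replicate 1 (0.089) or 2 (0.061). The first probe's call was lost in the deposited values (change 0.28, adjusted p = 0.453) and on the 75th percentile (0.58, 0.064).

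**Figure D3:**
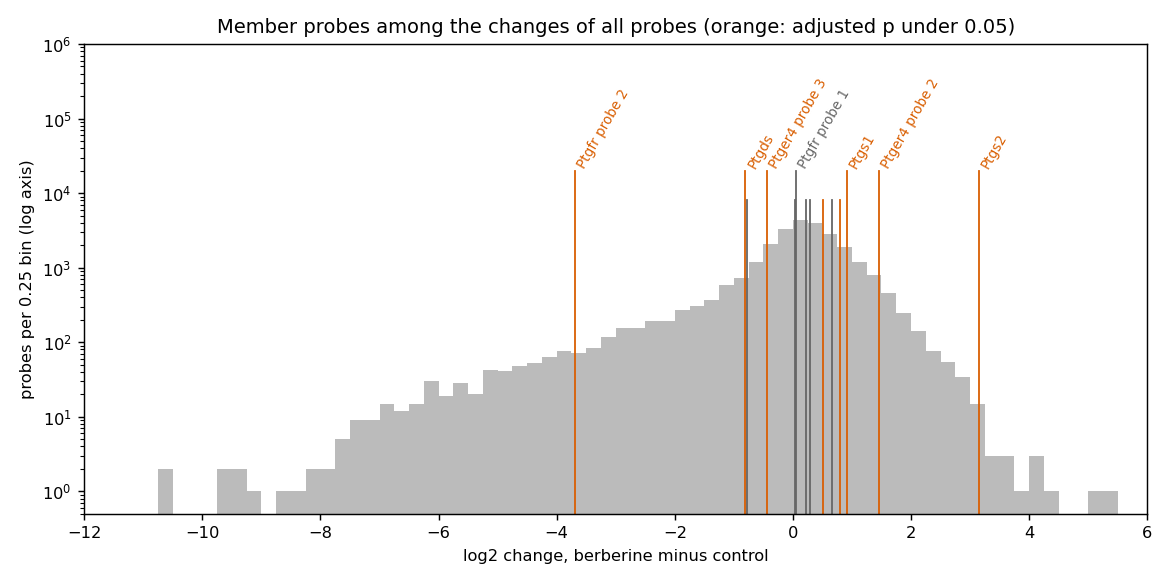
Number of probes (vertical axis, log scale) in each 0.25 bin of log2 change with berberine (horizontal axis), with vertical lines at the 14 member probes, orange where called and grey where not. Ptgs2 stands in the upper tail at 3.15, the dimmer Ptgfr probe in the lower tail at -3.70, and the other 12 lie between -0.81 and 1.46.

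Genes that act before, beside and after the 10 members were taken from lists of the wider pathway, by 1 probe per gene. By that probe, 30.0% of all genes were higher and 18.2% lower, with a median change of 0.20. Of 74 measured genes in these lists, 17 were higher and 19 lower, with a median of 0.25. In the step before the cyclooxygenases, arachidonate release, 4 of 23 genes were higher and 6 lower, with a median of 0.29.

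Pla2g4a, the cytosolic phospholipase A2 that supplies arachidonate to cyclooxygenases, read 1489 and 707 in control and 4840 and 5502 with berberine. Both berberine arrays exceeded both controls, and the normalized level was 9.70 ± 0.54 and 12.32 ± 0.025 (n = 2 each), 6.15-fold higher (log2 change 2.62, SE 0.27, adjusted p = 0.00193, up to 0.0422 over 11 alternatives). Daglb and Abhd6, enzymes of diacylglycerol and monoacylglycerol breakdown, were 2.23-fold and 2.09-fold higher. Mgll, a monoacylglycerol lipase in the same list, was 1.94-fold lower (adjusted p = 0.00709). Abhd6 was higher at its other probe too (log2 change 1.83), but its call was lost without berberine replicate 1 or 2 (adjusted p = 0.063 and 0.057). Plaat3, an adipose phospholipase, was 4.40-fold lower (adjusted p = 0.000357). Pla2g12a, a secreted phospholipase, was 2.44-fold lower at 1 probe, while its other probe had a change of -0.24 that did not pass.

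Among other terminal synthases, 1 of 9 genes was higher and 3 lower, with a median of 0.02. Cbr1, a carbonyl reductase that can turn prostaglandin E2 into F2-alpha, was 7.28-fold lower (13.13 ± 0.14 to 10.26 ± 0.18, n = 2 each, adjusted p = 0.00033). The other prostaglandin E synthases moved apart, with Ptges3 1.58-fold higher (adjusted p = 0.0385) and Ptges2 1.54-fold lower (adjusted p = 0.0322). Both were lost without either berberine array (adjusted p 0.128 to 0.209). Ptges3 was also lost in the deposited values and without control replicate 2 (0.357 and 0.115), and Ptges2 after centring and without control replicate 1 (0.117 and 0.072). Hpgds, the hematopoietic prostaglandin D synthase, read 347 and 115 in control and 140 and 74 with berberine at its brighter probe. These values overlap, and the change did not pass (adjusted p = 0.447). The other Hpgds probe read 38 and 56 in control and 42 and 61 with berberine, under the floor in both groups.

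Among 5 further genes, which were other prostanoid receptors and the receptor regulator Ptgfrn, 1 was higher and 1 lower, with a median of 0.16. Ptgir, the prostacyclin receptor, read 271 and 282 in control and 591 and 641 with berberine, more than the spread between arrays in either group. It was 3.29-fold higher (log2 change 1.72, SE 0.15, adjusted p = 0.00113) and was called in all 11 alternatives. Ptgfrn, a membrane protein described as a negative regulator of prostaglandin F2-alpha binding to its receptor, was 4.24-fold lower (13.49 ± 0.35 to 11.41 ± 0.062, n = 2 each, adjusted p = 0.00151). The probe of Ptgdr, a prostaglandin D2 receptor, was under the floor in both groups.

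In transport and breakdown, 3 of 6 genes were higher and 1 lower, with a median of 0.52. Abcc4, an efflux pump that exports prostaglandins, was 3.22-fold higher (10.02 ± 0.087 to 11.71 ± 0.079, n = 2 each, adjusted p = 0.000802). Hpgd, the dehydrogenase that inactivates prostaglandins, read 127 and 105 in control and 262 and 282 with berberine, 3.10-fold higher (adjusted p = 0.000959), while its other probe lay under the floor. Slco3a1, a transporter, was 2.59-fold higher at its brighter probe and changed by -0.07 at the other, and the first call was lost without berberine replicate 1 (adjusted p = 0.058). Slco2a1, the prostaglandin uptake carrier, was not called (-0.53, adjusted p = 0.0713) but was called lower in the deposited values (-1.07, adjusted p = 0.028) and with an intensity trend (0.042).

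**Figure D4:**
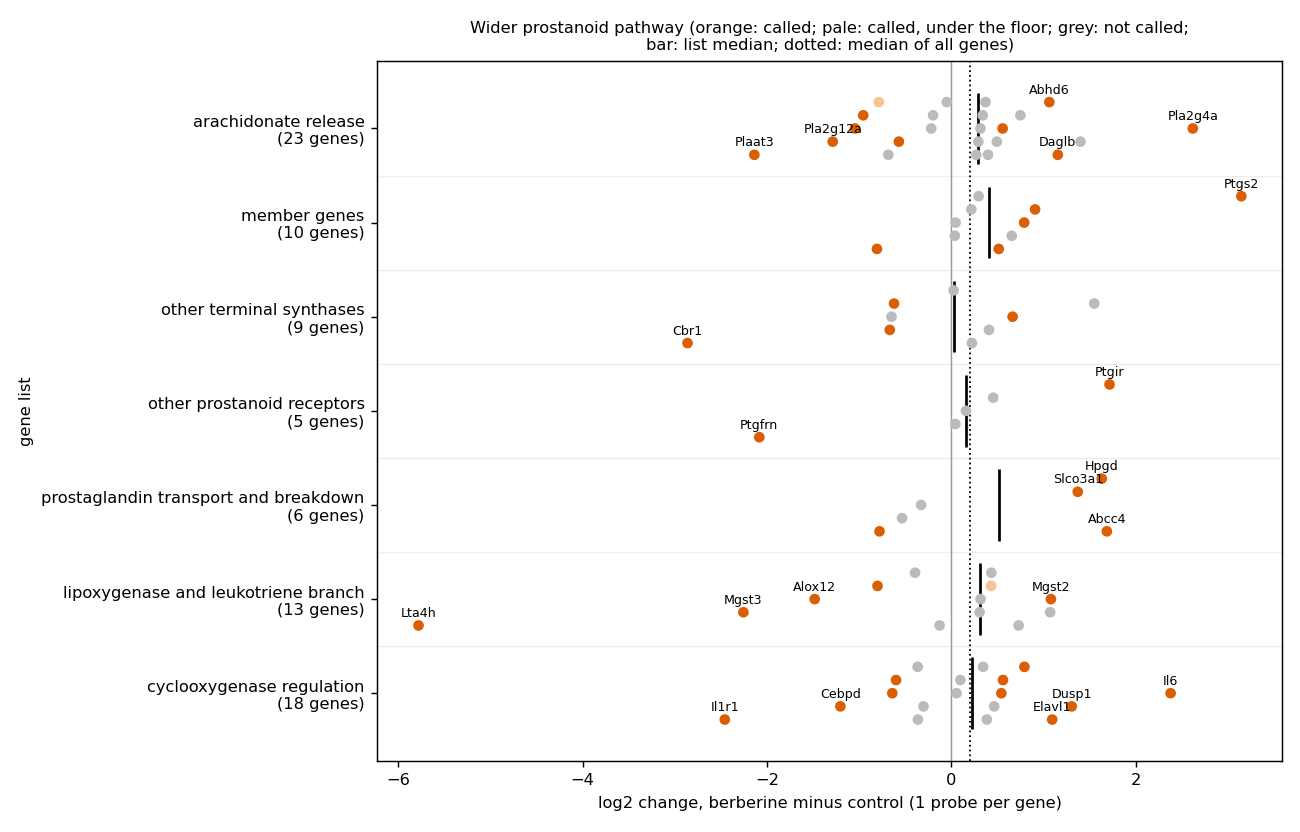
Log2 change with berberine (horizontal axis) of each gene, by 1 probe, in the member list and 6 wider lists (vertical axis), with called genes in orange, list medians as bars and the median of all genes, 0.20, as a dotted line. Ptgs2 (3.15), Pla2g4a (2.62) and Il6 (2.38) lie farthest to the right and Lta4h farthest to the left.

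In the lipoxygenase and leukotriene branch, which draws on the same arachidonate, 2 of 13 genes were higher and 4 lower, with a median of 0.31. Lta4h, leukotriene A4 hydrolase, read 3797 and 3194 in control and 51 and 72 with berberine. It fell at least 34.6-fold, to under the floor (adjusted p = 6.8e-05), at its single probe. Mgst3, a microsomal glutathione transferase, was 4.78-fold lower (log2 change -2.26, and -1.51 after centring). Mgst2, a related enzyme, was 2.11-fold higher, a call lost with unscaled arrays (adjusted p = 0.074) and without berberine replicate 2 (0.059). Alox12, a lipoxygenase, was 2.80-fold lower, but the call was lost without any 1 of the 4 arrays (adjusted p 0.063 to 0.148).

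Genes known to regulate cyclooxygenase expression moved both ways, 6 of 18 higher and 4 lower, with a median of 0.22. Il6, a cytokine, read 183 and 124 in control and 522 and 593 with berberine, 5.20-fold higher (adjusted p = 0.000608), while Il1r1, the interleukin-1 receptor, was 5.50-fold lower (12.46 ± 0.18 to 10.00 ± 0.042, n = 2 each, adjusted p = 0.0004). Dusp1, a glucocorticoid-induced phosphatase, was 2.47-fold higher and Elavl1, an RNA-binding protein that stabilizes Ptgs2 mRNA, 2.13-fold higher at its brighter probe (log2 change 1.09, and 1.30 to 1.86 under the other scalings). Cebpd, a C/EBP factor, was 2.30-fold lower. The calls of Dusp1 and Cebpd were lost without berberine replicate 1 or 2 (adjusted p 0.052 to 0.074), and that of Elavl1 without berberine replicate 1 (0.067) or control replicate 2 (0.060). Cebpb, another C/EBP factor, was not called (-0.37, adjusted p = 0.270). It was called lower without control replicate 2 (-0.69, 0.028) and was at 0.41 after centring and 0.15 on the 75th percentile.

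Cell type markers show what else differed in these samples. Of 10 mature adipocyte markers 8 were lower and 1 higher, and their summed normalized intensity was 623569 to 642952 on control arrays and 42173 to 44356 on berberine arrays. Each such sum is weighted to its brightest probes. Of 8 measured preadipocyte and fibroblast markers 4 were higher and 3 lower, with sums of 305242 to 312470 and 279670 to 281998. Vim, the brightest of them at 17.21 in control and 17.12 with berberine, was not called. Dlk1 was 3.09-fold lower. Col1a1 was 2.81-fold higher at a dim probe, which read 183 and 182 in control and 314 and 413 with berberine. At brighter probes Col1a2 was 1.51-fold higher and Col3a1 1.79-fold lower. Of 6 macrophage markers 1 was higher and 2 lower, with a median change of -0.02, and Adgre1, which defines macrophages, was under the floor in both groups. Their sum was 10247 to 11482 in control and 3544 to 3648 with berberine, most of it from the single probe of Cd14, which read 11468 and 7576 in control and 2134 and 2361 with berberine. Of 5 endothelial markers 3 were higher and 0 lower, with sums of 968 to 1014 and 1421 to 1526. Those called were Cdh5, Tek and Vwf, all dim, with Tek under the floor in control. Cdh5 read 202 and 199 in control and 329 and 355 with berberine, and Kdr and Pecam1 were not called. Of 3 measured muscle markers 1 was higher, with sums of 947 to 1307 and 1807 to 1856. The muscle marker called higher was Des, the brightest of the 3, while Acta1 was not called and Ckm was under the floor in both groups. The part of these differences in the changes of the prostaglandin genes was not tested. In such bulk samples, fewer cells of a type and less RNA per cell cannot be told apart.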

How the data were processed

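Labelled aRNA (Cy5, 5 µg) from total RNA was, per the labels' protocols, hybridised to 1 array a sample. The authors deposited linear intensity values in whole numbers; the sources used here do not give scanner, background correction or scaling. Groups came from the sample titles. Of 26423 probes, 20377 had 1 gene symbol, 0 several and 6046 none; 2126 were updated through an older symbol. The 15 probes at or under 0 on an array were left out, and 26408 were quantile-normalized on the log2 scale and fitted with limma 3.58.1 in R 4.3.3 (2 residual and 2.89 prior degrees of freedom). The fit was run on simulated data with few planted changes, as many up as down, and the same spread in both groups. That setting differs from these data, so the run does not test the fit under changes as wide as those seen here. A gene in a list was read by its brightest probe on average, and a fold against a group under the floor (intensity 95.3) is given as "at least". Named were all members, a few fixed genes, Mgll and, per list, up to 5 called genes changed at least 2-fold. The members, lists and rules were chosen with earlier results of these data known. The start windows were cut to 25 bases from the annotated start on, a limit set after the sequences were seen. Alternatives covered scaling, pseudocount, variance model, replicate block, dim probes, probe averaging, the floor and each array left out. The small number of arrays limits precision. The labels name no batch.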

Additional observations from a re-analysis of the deposited data

How the results depend on the processing

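With 2 arrays a group, calls rest on limma's pooled spread, and most member calls were lost without a berberine array; the cause was not tested. Among probes above log2 10, the median difference between arrays was 0.26 for control and 0.087 for berberine. All 11838 called probes became 6687 in the deposited values, and 4339 to 10772 with each array left out in turn (4339 without berberine replicate 1, 4621 without berberine replicate 2). The 8 called member probes became 5 in the deposited values (3 higher, 2 lower) and 2 to 8 with an array left out (2 without berberine replicate 1, 3 without berberine replicate 2). The lone array is then assumed to vary like the other group. The 36 called genes of the wider lists became 14 to 31 (14 without berberine replicate 1, 16 without berberine replicate 2). Centring on the array median gave 8 higher and 2 lower member probes, and 23 higher and 11 lower wider genes, in place of 17 and 19. Of all calls, 10694 were then higher and 3311 lower, against 7164 and 4674, and in the deposited values 2396 and 4291. The wider lists had 10 higher and 16 lower in the deposited values and 17 and 13 on the 75th percentile. Replicate numbers are shared between groups only as numbers: the array differences of both groups correlated across probes at 0.0035 after normalization (0.26 before). With the replicate block 9 member probes passed (Ptger3 and the dimmer Ptger2 probe gained, the lower Ptger4 probe lost), 12760 probes in all and 44 wider genes, among them Hpgds (adjusted p = 0.011) and Slco2a1 (0.031). Of 12 member probes above the floor, 12 remained at the 10th percentile and 10 at the median. No called change of the 40 probes followed here, 14 of members and 26 of other genes, turned sign under any alternative run.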
